A study of Mus musculus with 12 samples.

Results

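The 10 genes described here encode the enzymes and membrane proteins that build and enlarge an autophagosome: Atg7, Atg3, Atg10, Atg12, Atg5, Atg16l1, Atg9a, Atg2a, Wipi1 and Wipi2. They were chosen by name, with earlier results of these data known, and the rows of the count table that carry these names were taken. All 10 were found among the 24062 genes of the table. All 10 also passed the filter on low counts, which left 12154 genes for testing. The question asked of them was whether their transcripts change when fibroblasts are starved, and whether they differ in cells depleted of BRUCE, a large ubiquitin-conjugating enzyme encoded by Birc6.

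RNA was measured in mouse embryonic fibroblasts (MEFs) that carried a retroviral short hairpin RNA (shRNA). The control hairpin, shRenilla, targets Renilla luciferase, and the hairpin shBruce#1, written shBruce below, targets Birc6. Cells of each line were kept in full medium (FM) or were starved (Starv) for 2 h in a medium that held neither serum nor amino acids. With 3 libraries for each of the 4 conditions there were 12 libraries of poly(A)-selected RNA. Each hairpin was represented by 1 cell line, so any other difference between the lines cannot be told apart from the knockdown. The labels do not say whether the 3 replicates were separate cultures, so the p-values measure the spread between these libraries, which may be technical.

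An autophagosome starts as a flat membrane sac that grows around cytoplasm and closes. Its growth needs a ubiquitin-like reaction chain in which the E1-like enzyme ATG7 activates ATG12 and the ATG8 proteins. The E2-like enzyme ATG10 passes ATG12 to ATG5, and the ATG12-ATG5-ATG16L1 complex then helps the E2-like enzyme ATG3 to attach ATG8 proteins to phosphatidylethanolamine in the membrane. Vesicles that carry the lipid scramblase ATG9A seed the sac, ATG2A transfers lipid into it, and the WIPI proteins bind the lipid phosphatidylinositol 3-phosphate on its surface. WIPI2 recruits ATG16L1 to that site.

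Total counts lay between 13200393 and 18510540 in 11 libraries and reached 7717265 in shBruce Starv replicate 1. Birc6, the gene targeted, had normalized counts of 4682, 3273 and 5061 in shRenilla FM and of 4759, 4712 and 2787 in shRenilla Starv, against 1207, 1265 and 1390 in shBruce FM and 1175, 703 and 1226 in shBruce Starv. A normalized count is the raw count scaled by TMM to the geometric mean of the 12 effective library sizes. No shBruce library reached the lowest shRenilla library, and the log2 difference between the lines was -1.75 in FM (SE 0.25, adjusted p = 0.0627) and -1.98 in Starv (SE 0.25, adjusted p = 0.0186, edgeR quasi-likelihood test). Of 10 fibroblast markers 8 passed the filter, with Col1a1, Vim and Fn1 high, while Thy1 reached at most 3 counts and Lum at most 1 count in a library. Markers of other cell types, of which 9 of 10 were in the table, summed to 271 to 346 normalized counts in shRenilla FM, 394 to 422 in shRenilla Starv, 394 to 444 in shBruce FM and 494 to 517 in shBruce Starv. The neuronal tubulin gene Tubb3 made up most of these sums, with mean normalized counts of 186, 308, 280 and 393 in that order. It rose on starvation by 0.73 (SE 0.14) in shRenilla and 0.49 (SE 0.14) in shBruce on the log2 scale. The macrophage marker Cd68 fell by 0.65 (SE 0.21, adjusted p = 0.0386, edgeR) in shBruce, and the leukocyte marker Ptprc, with at most 17 counts in a library, was higher by 1.52 (SE 0.42, adjusted p = 0.0283, edgeR) in shBruce than in shRenilla in Starv. Fibroblast markers summed to between 118002 and 172372 in the 12 libraries, and the macrophage marker Adgre1 was not among the genes of the table. The part of these sums in the results was not tested.

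The main outcome was that 2 of the 10 genes rose on starvation in both lines, Atg12 and Wipi1, each by 1.59- to 1.74-fold. Of all genes tested, 17% were called on starvation in shRenilla and 23% in shBruce, in either direction. Called higher were 9.69% in shRenilla and 12.4% in shBruce. The share of all genes called higher in both lines was not counted, so the members that rose in both have no matched background. Atg16l1 fell on starvation in the shBruce line, a call that stood in 19 of 23 alternative fits. Its values were also lower in starved shRenilla cells without passing the test. The other 7 genes passed the test in neither line. Between the lines no member passed the test in FM or in Starv. All changes are log2 fold changes from edgeR with a two-sided test, and p-values were adjusted over the 12154 genes tested, with an adjusted p under 0.05 taken as a call.

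**Figure D1:**
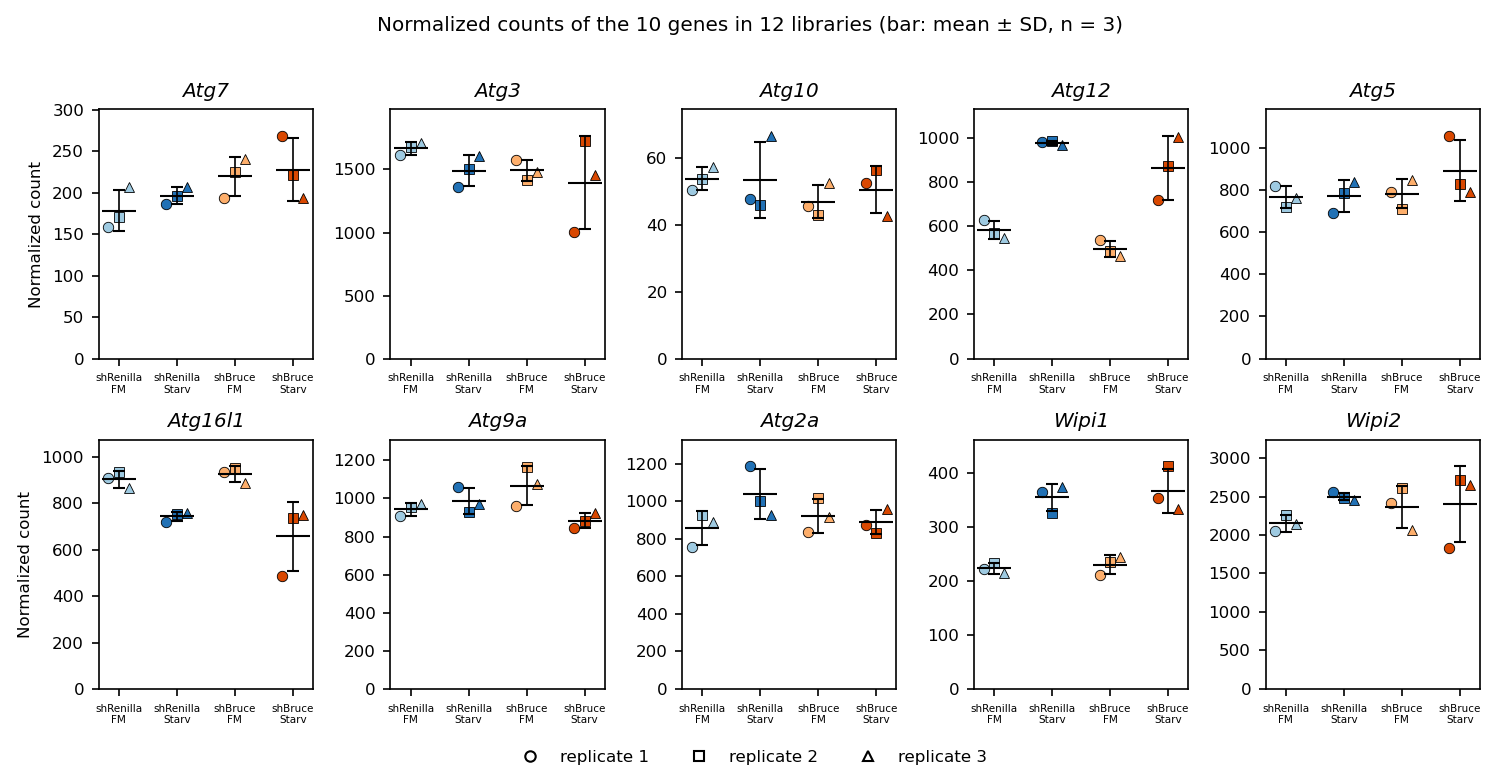
Normalized counts (vertical axis, from 0, with its own scale for each gene) of the 10 genes in the 4 conditions. Symbols are single libraries and black bars are the mean ± SD of 3. Atg12 and Wipi1 stand higher in all 6 Starv libraries than in the 6 FM libraries, and shBruce Starv replicate 1 stands apart for Atg3, Atg16l1 and Wipi2.

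In shRenilla cells 2 members were called higher on starvation and 0 lower. Of all genes tested, 17% were called in this comparison, 9.69% higher and 7.27% lower, so 2 of 10 is close to the background. The median log2 change of the 10 genes was 0.10, against -0.01 for all genes tested. In shBruce cells 2 members were called higher and 1 lower. There 23% of all genes were called, 12.4% higher and 10.6% lower. The median of the 10 was 0.03, against 0.02 for all genes. RNA from whole cultures was measured, so fewer cells that carry a transcript and less of it per cell cannot be told apart.

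Starting with the conjugation enzymes, the 3 genes Atg7, Atg3 and Atg10 gave no call in any comparison. Atg7 (chr6:114643097-114860614, plus strand, GRCm38) had 158, 171 and 207 normalized counts in shRenilla FM and 187, 196 and 207 in shRenilla Starv. Its values were 194, 225 and 241 in shBruce FM and 268, 222 and 193 in shBruce Starv. The ranges overlapped in both lines, and the log2 change on starvation was 0.14 (95% confidence interval -0.21 to 0.48) in shRenilla and 0.04 (-0.31 to 0.38) in shBruce. Its difference between the lines in FM, 0.30 (-0.04 to 0.65, adjusted p = 0.383), was the largest of the 10 genes in that comparison.

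Atg3 (chr16:45158785-45188538, plus strand) had 1611, 1678 and 1711 normalized counts in shRenilla FM and 1364, 1502 and 1606 in shRenilla Starv. All 3 starved libraries were below all 3 fed ones, but the log2 change of -0.16 did not pass the test (SE 0.16, adjusted p = 0.528). In shBruce it had 1578, 1419 and 1481 in FM and 1001, 1730 and 1458 in Starv. The spread among the starved shBruce libraries was wider than any difference between conditions, with replicate 1 far below the other two. Without that library the log2 change in shBruce moved from -0.09 to 0.08. Atg10 (chr13:90935356-91223968, minus strand) was the most shallowly measured member, with 26 to 70 raw counts in a library. Its confidence intervals on starvation ran from -0.45 to 0.41 in shRenilla and from -0.36 to 0.55 in shBruce.

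Atg12, the ubiquitin-like protein that is attached to ATG5, had the largest change of the 10 genes in both lines. It lies on chromosome 18. In shRenilla it had 629, 569 and 548 normalized counts in FM and 979, 987 and 966 in Starv. All starved libraries lay well above the fed ones and close to each other. The shBruce values were 537, 487 and 467 in FM and 717, 872 and 1004 in Starv. Again no starved library overlapped a fed one, although the starved libraries were more widely spread, with the lowest in replicate 1. The log2 change was 0.75 (SE 0.13, 95% confidence interval 0.46 to 1.03, adjusted p = 0.00184) in shRenilla and 0.80 (SE 0.13, 0.51 to 1.09, adjusted p = 0.00101) in shBruce. These are folds of 1.68 and 1.74. The change in shRenilla was at the 91.3 percentile of all genes tested, and that in shBruce at the 89.8 percentile.

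Atg5, the partner to which ATG12 is joined, showed no such change. It had 819, 720 and 762 normalized counts in shRenilla FM and 689, 784 and 838 in shRenilla Starv. The shBruce libraries had 789, 711 and 849 in FM and 1056, 830 and 789 in Starv. The ranges overlapped in both lines, and the log2 change was 0.01 (-0.29 to 0.30) in shRenilla and 0.18 (-0.11 to 0.48) in shBruce. The highest of the 12 values was that of shBruce Starv replicate 1, and without it the change in shBruce was 0.03. Atg5 lies at chr10:44268358-44364291 on the plus strand.

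Atg16l1, which positions the ATG12-ATG5 pair on the membrane, had lower values on starvation. It lies at chr1:87755870-87792428 on the plus strand. It had 912, 934 and 865 normalized counts in shRenilla FM and 721, 755 and 757 in shRenilla Starv. In shBruce it had 934, 955 and 889 in FM and 486, 736 and 751 in Starv. In both lines every starved library was below every fed one. The log2 change was -0.49 in shBruce (SE 0.15, -0.80 to -0.17, adjusted p = 0.0295) and -0.28 in shRenilla (SE 0.15, -0.59 to 0.03, adjusted p = 0.207). The difference between these changes was -0.21 (-0.65 to 0.24, adjusted p = 0.822), so a stronger fall in shBruce was not shown. Without shBruce Starv replicate 1 the log2 change was -0.33 in shBruce (adjusted p = 0.0252) and -0.27 in shRenilla (adjusted p = 0.0352), and Atg16l1 then passed the test in both lines. The call in shBruce was lost without shBruce FM replicate 1 (adjusted p = 0.0797) or replicate 2 (adjusted p = 0.0856), under upper-quartile scaling (-0.39, adjusted p = 0.0773) and with only the 6 libraries compared (adjusted p = 0.181).

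Since the proteins of Atg12 and Atg16l1 work in 1 complex, their counts were also set against each other within each library, a ratio that does not depend on scaling between libraries. The pair was chosen after the values had been seen, so the ratio is a description. In shRenilla there were 0.690, 0.609 and 0.634 Atg12 counts per Atg16l1 count in FM and 1.36, 1.31 and 1.28 in Starv. In shBruce there were 0.575, 0.510 and 0.526 in FM and 1.47, 1.18 and 1.34 in Starv. The mean ratio was 2.04-fold higher in Starv in shRenilla and 2.48-fold higher in shBruce. Fed and starved libraries did not overlap in either line, and the exact permutation p of 0.1 is the smallest that 3 libraries against 3 allow. In the starved cells the ratio was 1.31 ± 0.0415 in shRenilla and 1.33 ± 0.145 in shBruce (SD, n = 3), and these overlapped. In FM the mean ratio in shBruce was 0.833 of that in shRenilla, and all 3 shBruce libraries were below all 3 shRenilla ones (exact permutation p = 0.1). The ratio in shBruce Starv replicate 1, 1.47, was the highest of the 12.

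Among the genes for membrane supply, Wipi1 was the second to rise in both lines. It encodes a protein that binds phosphatidylinositol 3-phosphate and lies at chr11:109573331-109611967 on the minus strand. It had 222, 234 and 214 normalized counts in shRenilla FM and 364, 325 and 374 in shRenilla Starv. The shBruce values were 210, 234 and 245 in FM and 353, 412 and 333 in Starv. The starved libraries were above the fed ones in both lines without overlap. The log2 change was 0.67 (SE 0.13, 0.39 to 0.94, adjusted p = 0.0035) in shRenilla and 0.67 (SE 0.13, 0.39 to 0.95, adjusted p = 0.0028) in shBruce, folds of 1.59 in each. The difference between the 2 changes was 0.00 (-0.39 to 0.40).

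Wipi2, the member of the family that recruits ATG16L1, did not pass the test. It lies at chr5:142627698-142670588 on the plus strand. It had 2045, 2261 and 2145 normalized counts in shRenilla FM and 2554, 2485 and 2459 in shRenilla Starv, where all starved libraries stood above the fed ones. The log2 change there was 0.22 (-0.10 to 0.53, adjusted p = 0.334). The shBruce libraries had 2410, 2611 and 2067 in FM and 1837, 2715 and 2652 in Starv, with a change of 0.03 (-0.29 to 0.34). Without the low starved library, replicate 1, the change in shBruce was 0.17 (adjusted p = 0.275). The ratio of Wipi1 to Wipi2 counts, again chosen after the values had been seen, was 0.104 ± 0.00438 in shRenilla FM and 0.142 ± 0.0106 in shRenilla Starv. It was 0.0985 ± 0.0174 in shBruce FM and 0.156 ± 0.0337 in shBruce Starv (SD, n = 3), with an exact permutation p of 0.1 in each line.

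**Figure D2:**
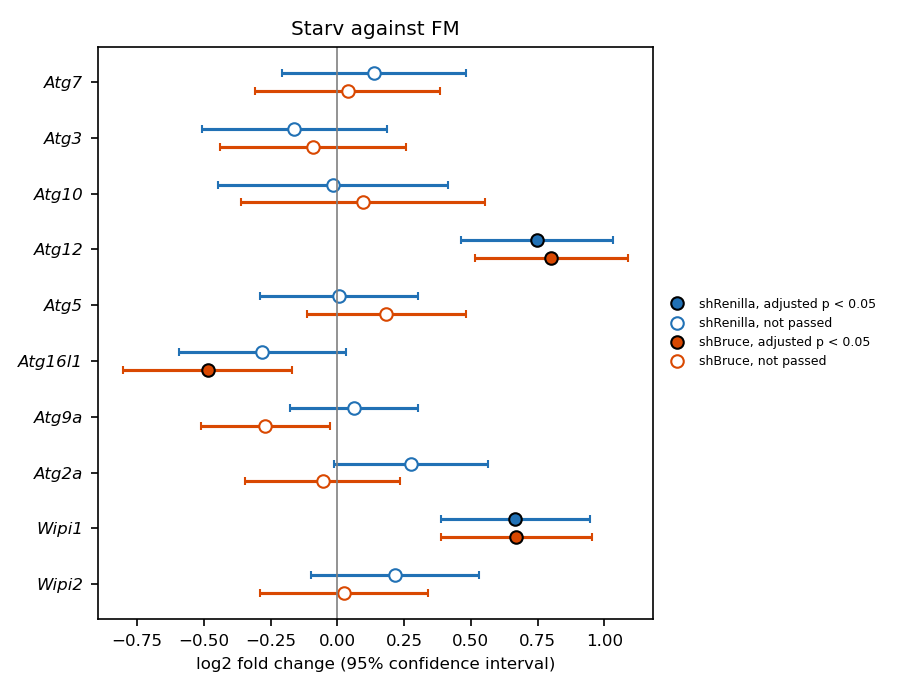
Log2 fold change of each gene, Starv against FM (horizontal axis), with 95% confidence intervals, in shRenilla (blue) and shBruce (orange). Filled points have an adjusted p under 0.05. Atg12 and Wipi1 lie between 0.67 and 0.80 in both lines, and Atg16l1 lies below 0 in both.

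The last 2 members gave different signs in the 2 lines without a call. Atg9a (chr1:75180860-75192196, minus strand), the scramblase of the seed vesicles, had 907, 953 and 973 normalized counts in shRenilla FM and 1061, 927 and 973 in shRenilla Starv. In shBruce it had 961, 1164 and 1074 in FM and 844, 882 and 926 in Starv. In shBruce the starved libraries were all below the fed ones, and the log2 change was -0.27 (SE 0.11, -0.51 to -0.03, adjusted p just above 0.1), while it was 0.06 (-0.18 to 0.30) in shRenilla. Atg2a (chr19:6241668-6262335, plus strand), the lipid transfer protein, had 755, 928 and 892 in shRenilla FM and 1187, 1002 and 927 in shRenilla Starv, with a change of 0.28 (-0.01 to 0.56, adjusted p = 0.177). The shBruce values were 838, 1019 and 915 in FM and 876, 833 and 959 in Starv, with a change of -0.05 (-0.34 to 0.23). The test of the difference between the lines' changes gave -0.33 (-0.67 to 0.01) for Atg9a and -0.33 (-0.74 to 0.08) for Atg2a, each with an adjusted p of 0.806. In that test no gene at all was called, 0% of 12154, with 474 genes (3.9%) at an unadjusted p under 0.05 and none of the 10 members among them, and DESeq2 and limma-voom also called 0. Reads of Atg9a may be less certain than those of the other 9 genes. Of its exon bases 1832 (31.8%) are shared with the transcript Gm29253 on the same strand and 46 with Ankzf1 on the other. Ankzf1 is among the genes of the count table and Gm29253 is not. Whether the counting used strand is not given in the sources used here.

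Between the lines, 0 of the 10 genes were called in either medium. In FM no gene at all was called (0% of 12154, with 1750 genes, 14.4%, at an unadjusted p under 0.05, none of them a member, by edgeR, while DESeq2 called 76 and limma-voom 0). In Starv 23.9% of all genes were called, 12.8% higher and 11.2% lower in shBruce, and 41.2% had an unadjusted p under 0.05, with no member among them. Over the 10 genes the median difference was 0.04 in FM and -0.09 in Starv, against 0.01 and -0.00 for all genes. The estimates ran from -0.23 for Atg12 to 0.30 for Atg7 in FM and from -0.22 for Atg2a to 0.21 for Atg5 in Starv. The widest confidence limits over the 10 genes were -0.63 and 0.65 in FM and -0.53 and 0.55 in Starv, and a p that misses the level does not show that the lines have the same amounts. Libraries of the lines did not overlap for 2 of the 10 genes in FM, Atg3 and Atg12, both lower in shBruce, and for 1 in Starv, Atg9a. Over all genes tested this held for 33.4% and 34.9%. On starvation, libraries did not overlap for 5 of 10 members in shRenilla and 4 of 10 in shBruce, beside 52.4% and 30.9% of all genes.

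**Figure D3:**
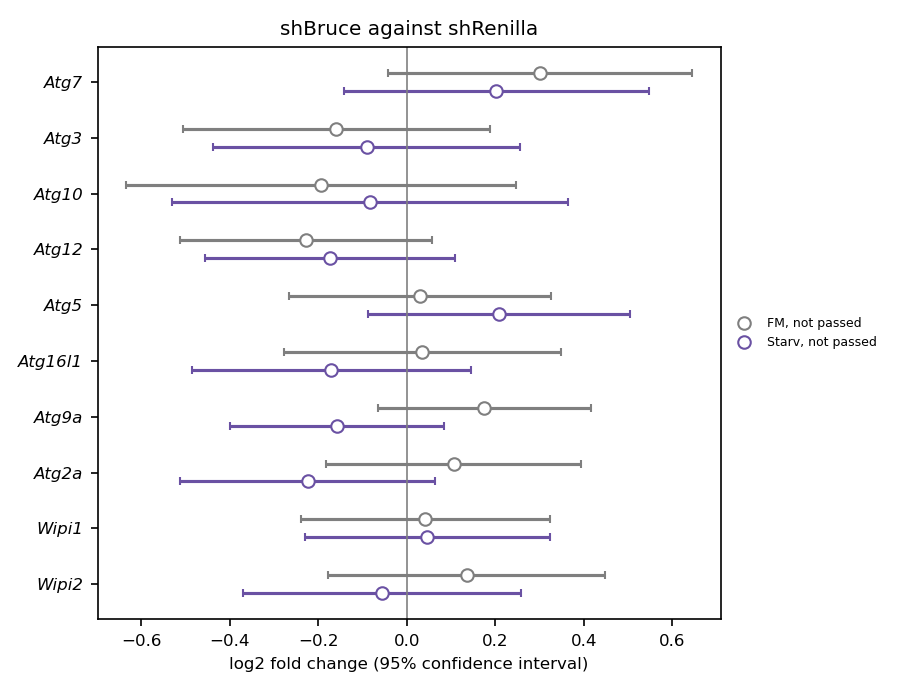
Log2 fold change of each gene, shBruce against shRenilla (horizontal axis), with 95% confidence intervals, in FM (grey) and in Starv (purple). Open points did not pass an adjusted p under 0.05, and every interval includes 0.

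A trend with gene structure ran through the comparison of the lines. Over the 12051 genes with a known transcript length, the Spearman correlation of the log2 difference between the lines with the length of the longest transcript was -0.47 in FM and -0.55 in Starv, and with GC content it was 0.45 and 0.41. For starvation in shRenilla these were 0.19 and -0.16, and for starvation in shBruce -0.11 and -0.01. The difference between the lines' starvation changes also followed the trend, with -0.37 for length and 0.18 for GC content. These are descriptions across genes, which are not independent replicates. With this trend removed, the difference of Atg12 between the starved lines went from -0.17 to 0.14, and neither value was called. The number of genes called between the starved lines in the whole table went from 2907 to 978 with the trend removed, and to 1 with the replicate block as well, and no member was called in either. The starvation calls of Atg12, Wipi1 and Atg16l1 in shBruce stood with the trend removed.

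Levels were compared between genes per kilobase of exon, as RPKM, reads per kilobase scaled to library size, using all annotated exons of the gene merged. In shRenilla FM the order was Atg3 (36.2), Atg5 (22.3), Wipi2 (14.0), Atg9a (11.2), Atg2a (7.64), Atg16l1 (6.43), Atg12 (5.17), Wipi1 (3.47), Atg10 (2.15) and Atg7 (1.76). Every neighbour in this order was separated in all 3 libraries except Atg10 and Atg7, which overlapped. In shRenilla Starv Atg12 (8.68) stood above Atg16l1 (5.29) in all libraries, as did Atg12 in shBruce Starv (7.67 against 4.68). Wipi1 (5.50 in shRenilla Starv and 5.68 in shBruce Starv) overlapped with Atg16l1. In shBruce Starv the order of Atg3 (30.3) and Atg5 (26.0) was not separated, since replicate 1 had 21.7 RPKM of Atg3 and 30.7 of Atg5.

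**Figure D4:**
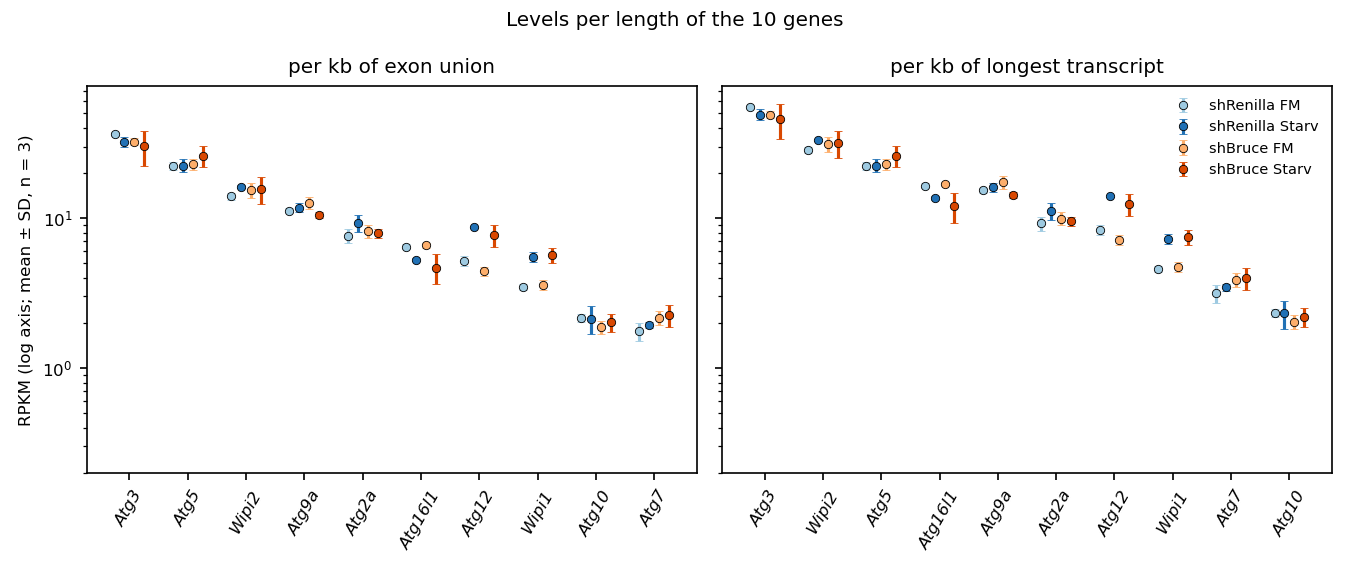
RPKM (log axis, mean ± SD, n = 3) of the 10 genes in the 4 conditions, per kilobase of merged exons on the left and of the longest transcript on the right, each ordered by shRenilla FM. Atg3 is the highest of the genes in every condition on both scales, and Atg12 and Wipi1 are higher in Starv (darker points) than in FM (paler points).

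The order depended on which length was used. Per kilobase of the longest transcript, Wipi2 (28.5) came next after Atg3 and Atg16l1 (16.5) stood above Atg9a on average in shRenilla FM, and Atg7 (3.14) stood above Atg10 (2.33) in all libraries. On that scale Atg12 (8.37) overlapped with Atg2a (9.23) in shRenilla FM and stood above Atg16l1 (14.0 against 13.6) in shRenilla Starv. In shBruce Starv Atg12 (12.4) and Atg16l1 (12.0) overlapped on that scale, unlike per kilobase of merged exons. Atg3 was first on both scales in each of the 4 conditions.

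The starts of the genes were searched for 2 short motifs linked to starvation responses. The first was CACGTG, the core of the CLEAR element bound by TFEB and related factors, which reads the same on both strands. The second was GTAAACA, a core bound by FOXO factors, searched on both strands. The 2 motifs can share at most 2 bases at their ends. RefSeq promoter entries (GRCm38.p6, 250 bases before to 50 after a start site) were searched for 8 of the 10 genes. Atg12 and Atg16l1 were not searched, so whether they hold either motif was not tested. CACGTG was in 3 of the 8, Atg7, Atg3 and Atg5, and GTAAACA in 0 of the 8. Of the 32851 RefSeq promoters searched in all, each of the same length, 7.15% held CACGTG and 3.65% held GTAAACA. The sequences of the 3 genes with CACGTG are shown because none of them was called on starvation, and that of Wipi1 because it was called and its entry holds neither motif. Each runs 5′ to 3′ on the strand of the gene, holds up to 150 bases before the RefSeq start without annotated exon bases, and has CACGTG in capitals.
Atg7 (chr6:114670946-114671095, plus strand): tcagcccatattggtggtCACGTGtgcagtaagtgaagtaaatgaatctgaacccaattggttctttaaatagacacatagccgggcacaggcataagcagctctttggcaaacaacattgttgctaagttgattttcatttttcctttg
Atg3 (chr16:45158707-45158784, plus strand): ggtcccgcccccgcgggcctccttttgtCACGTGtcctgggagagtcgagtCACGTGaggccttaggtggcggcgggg
Atg5 (chr10:44268189-44268338, plus strand): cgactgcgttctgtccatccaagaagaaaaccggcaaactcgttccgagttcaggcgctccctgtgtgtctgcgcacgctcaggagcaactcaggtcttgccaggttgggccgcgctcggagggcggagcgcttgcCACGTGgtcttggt
Wipi1 (chr11:109611433-109611539, minus strand): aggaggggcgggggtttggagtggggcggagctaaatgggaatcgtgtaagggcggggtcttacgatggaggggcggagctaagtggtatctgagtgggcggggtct

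The motif began 132 bases before the start in Atg7, 94 and 71 bases before it in Atg3, and 14 bases before it in Atg5. The RefSeq start used for Atg7 lies 27999 bases inside the gene as GENCODE annotates it, and those used for Wipi2 and Wipi1 lie 1886 and 578 bases inside, so these windows are not at the outermost start of those genes. The match is a description of letters in these windows. It says nothing about binding, and the absence of the letters says only that they are not in this stretch.

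The gene whose pattern was followed further was Atg12, as the member with the largest change in shRenilla. Of all genes tested, the 3 most like it over the 12 libraries in log2 CPM (counts scaled to library size) were Txnip (Pearson r = 0.988), Vash2 (r = 0.988) and Ing3 (r = 0.987). These libraries share the same 4 conditions, so this is a description. Among the members the most similar to Atg12 was Wipi1 (r = 0.85), and Atg16l1 had r = -0.55 with Atg12.

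Other genes of the pathway, from lists written with earlier results of these data known, were placed beside the 10. Of 12 genes of the initiation complexes, the kinase and lipid kinase complexes that act before membrane growth, 6 rose and 0 fell on starvation in shRenilla, with a median log2 change of 0.49, beside 9.69% of all genes higher and 7.27% lower. In shBruce 5 rose and 0 fell, with a median of 0.38, beside 12.4% and 10.6% of all genes. Over the 23 alternatives the number that rose ran from 3 to 8 in shRenilla and from 2 to 7 in shBruce. Atg14, which targets the lipid kinase complex to the site of formation, rose by 1.65 (SE 0.12) in shRenilla and 1.69 (SE 0.12) in shBruce on the log2 scale. Atg13, a subunit of the ULK1 kinase complex, rose by 0.94 (SE 0.16) and 0.86 (SE 0.16). The kinase gene Ulk1 rose by 0.71 (SE 0.17) in shRenilla and 0.54 (SE 0.17) in shBruce, where the call stood in 14 of 23 alternatives. Rb1cc1, the scaffold of that complex, rose by 0.74 (SE 0.20) in shBruce, and its log2 change in shRenilla, 0.39 (SE 0.20, adjusted p just under 0.2), did not pass the test. Without shBruce Starv replicate 1, Rb1cc1 rose no longer by the test (0.43, adjusted p = 0.0522).

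Of 9 genes for the ATG8 proteins and the ATG4 proteases that process them, 2 rose and 0 fell in each line. Of all genes tested, 9.69% were called higher and 7.27% lower in shRenilla, and 12.4% and 10.6% in shBruce. The 2 that rose were Map1lc3b, by 0.71 (SE 0.16) in shRenilla and 1.25 (SE 0.16) in shBruce, and Gabarapl1, by 0.60 (SE 0.12) and 0.71 (SE 0.12). The medians of the 9 were -0.13 and 0.22. Of 9 paralogs and partners of the members, 2 rose and 1 fell in each line, beside the same shares of all genes. Zfyve1, which marks the membrane where autophagosomes start, rose by 1.01 (SE 0.22) and 0.70 (SE 0.22), and its call in shBruce stood in 10 of 23 alternatives, and was lost on leaving out any 1 library other than shBruce Starv replicate 1. Wdr45, a relative of the WIPI genes, rose by 0.86 (SE 0.15) and 0.78 (SE 0.15). Vmp1, which encodes a scramblase that works with ATG2 proteins, had log2 changes of -0.71 (SE 0.13) and -0.68 (SE 0.13). The medians of these 9 were 0.10 and 0.01.

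In the comparison of the lines in Starv, where no member was called, the ATG8 and ATG4 list had 4 genes higher and 1 lower in shBruce, beside 12.8% and 11.2% of all genes. Over the 23 alternatives these counts ran from 0 to 7 higher and from 0 to 2 lower. Map1lc3a differed by 1.23 (SE 0.29), Gabarapl2 by 0.94 (SE 0.25), Atg4d by 0.69 (SE 0.17) and Atg4c by -0.48 (SE 0.16) on the log2 scale. Without shBruce Starv replicate 1, Map1lc3a differed by 0.76, Gabarapl2 by 0.62, Atg4d by 0.48 and Atg4c by -0.43, and 0 genes of that list were called. Without shRenilla Starv replicate 1 or 2 no gene of the whole table was called between the starved lines. The lowest value of Map1lc3a over the alternatives was 0.44. Among the initiation genes Atg101 was higher by 0.90 (SE 0.19) and Ulk2 differed by -0.52 (SE 0.18), and among the paralogs Atg2b, the relative of Atg2a, differed by -0.57 (SE 0.16). Of these 3 only Atg101 was still called without shBruce Starv replicate 1 (0.75, adjusted p = 0.0483). Over the 23 alternatives Atg101 was called in 17, Atg2b in 15 and Ulk2 in 9. Their smallest differences there were 0.29, -0.25 and -0.20. In FM no gene of the 3 lists was called between the lines.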

How the data were processed

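RNA-seq of MEFs with shRenilla or shBruce#1, in FM or starved for 2 h, gave 12 libraries of single-end reads of 50 bases. Per the labels and the study's methods, the authors removed rRNA reads, mapped the rest to mm10 with STAR 2.4.0d and deposited 1 table of raw read counts per gene from HTSeq 0.5.4p3. The gene annotation, strand setting and treatment of overlapping genes are not given in the sources used here. Read counts without molecular identifiers can include PCR copies.

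Counts were tested with edgeR 4.0.16 in R 4.3.3: TMM factors, filterByExpr (minimum count 10), 1 fit of the 12 libraries with a mean per condition, quasi-likelihood F-tests and Benjamini-Hochberg adjustment over the 12154 genes kept. The study itself used limma-voom, which was 1 of the alternatives, beside DESeq2 1.42.0, other scalings and filters, a replicate block, removal of length and GC trends (splines with 4 degrees of freedom), fits of the 6 libraries compared and leaving out each library. limma-voom with sample quality weights (limma 3.58.1) was added after the data had been seen. Correlations used log2 CPM with a prior count of 0.5. Replicate libraries differed by more than sampling noise, with chi-square per degree of freedom from 2.24 to 98.4. The scripts were tested on simulated counts.

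The members and lists were chosen with earlier results of these data known. The text names all members, Birc6, up to 3 rising and 3 falling genes per other list and comparison by size among those called, and the 3 genes most like the member with the largest change. Positions and lengths are from GENCODE M21 (GRCm38), and 22724 symbols of the table matched it directly and 934 through an older symbol.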

Additional observations from a re-analysis of the deposited data

How the results depend on the processing

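Over 23 alternatives, Atg12 passed the test on starvation in all 23 in each line, with log2 changes of 0.66 to 0.83 in shRenilla and 0.68 to 0.90 in shBruce. Wipi1 passed in 23 in shRenilla and in 22 in shBruce, where fitting only the 6 libraries compared gave 0.68 (adjusted p = 0.0567). Atg16l1 passed in 19 in shBruce and in 4 in shRenilla. The count of members called on starvation in shRenilla went from 2 to 4 with only the 6 libraries compared, which added Wipi2 and Atg16l1. In that fit 41.9% of all genes were called, against 17% in the reported fit. With sample quality weights the count was 6, with Atg3 and Atg2a also called, and 58.1% of all genes were called. Both counts were close to the share of all genes. In shBruce the count went from 3 to 1 with only the 6 libraries compared. There 8.11% of all genes were called, against 23% in the reported fit. No member was called between the lines under any of the 23, nor in the test of the difference between the lines' starvation changes under any of the 22 that could give it.

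Counts over the whole table moved more. Those for starvation ranged from 1149 to 7059 in shRenilla and from 956 to 4009 in shBruce, and those between the lines reached 3690 in FM and 6525 in Starv, both with quality weights. Between the starved lines, 0 genes were called with only the 6 libraries compared and without shRenilla Starv replicate 1 or 2, and the call of Birc6 there was lost in the same 3 fits. Leaving out any 1 of shRenilla FM replicates 1, 2 and 3 and shRenilla Starv replicates 1 and 2 gave 1149 to 1224 in shRenilla, against 2061, and leaving out shBruce FM replicate 2 gave 1855 in shBruce, against 2790. Between the lines in Starv, 573 genes were called without shBruce Starv replicate 1, 15 without replicate 2 and 5735 without replicate 3. Sample quality weights were 0.175 for shBruce Starv replicate 1 and 0.171 for replicate 3. Upper-quartile scaling moved the median of all genes in shBruce on starvation to 0.11 and gave 1991 genes higher and 933 lower, against 1506 and 1284. In shRenilla it gave 1588 and 641, against 1178 and 883.

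Of 1140 alternative values for the 10 genes, 63 changed sign, over 20 estimates that were called neither in the reported fit nor in the alternative and were at most 0.17 in size. The causes were not tested. For starvation in shRenilla, Atg5 was -0.0067 with DESeq2's test, -0.0063 with its size factors, -0.017 with the length and GC trend removed, -0.013 with that and the replicate block, -0.069 with quality weights and -0.023 without a filter, and Atg10 was 0.066 with upper-quartile scaling and 0.00048 with only the 6 libraries compared. For starvation in shBruce, Atg10 was -0.073 with the trend removed and -0.074 with the block as well, Atg2a was 0.00040 with the trend removed and 0.034 with upper-quartile scaling, Atg3 was 0.10 with quality weights and 0.00074 with upper-quartile scaling, and Wipi2 was -0.0079 without a filter. Between the lines in FM, Wipi1 was -0.011 with the trend removed and -0.011 with the block as well, and Atg5 was -0.030 with quality weights. Between the lines in Starv, removing the trend gave 0.14 for Atg12, 0.0074 for Atg16l1 and 0.10 for Wipi2, removing it with the block gave 0.13 for Atg12 and 0.088 for Wipi2, and quality weights gave 0.16 for Atg3, 0.18 for Atg10 and 0.051 for Wipi2. The difference between the lines' changes was -0.013 for Atg10 with the trend removed, -0.011 for Atg10 and -0.019 for Atg3 with the block as well, and -0.0045 for Wipi1 without a filter.

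Leaving out 1 library at a time gave ranges that crossed 0 for 17 of these. For starvation in shRenilla they were -0.20 to 0.081 (Atg10) and -0.060 to 0.080 (Atg5). In shBruce they were -0.10 to 0.14 (Atg7), -0.28 to 0.080 (Atg3), -0.012 to 0.22 (Atg10), -0.12 to 0.018 (Atg2a) and -0.074 to 0.17 (Wipi2). Between the lines they were -0.033 to 0.094 (Atg5) and -0.0064 to 0.10 (Wipi1) in FM, and -0.27 to 0.082 (Atg3), -0.19 to 0.099 (Atg10), -0.052 to 0.11 (Wipi1) and -0.15 to 0.088 (Wipi2) in Starv. For the difference between the lines' changes they were -0.25 to 0.0047 (Atg7), -0.12 to 0.23 (Atg3), -0.069 to 0.14 (Atg12) and -0.095 to 0.071 (Wipi1). Where a member was called on starvation, those ranges were 0.70 to 0.81 and 0.68 to 0.90 for Atg12, 0.63 to 0.72 and 0.57 to 0.74 for Wipi1, and -0.59 to -0.33 for Atg16l1 in shBruce.

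No pairing of the libraries by replicate number was seen, though these correlations cannot exclude it. Of 18 same-numbered pairs 4 had a correlation of deviations above 0.1, and 0 of 12 libraries correlated best with its own number throughout. Such correlations ran from -0.42 to 0.31 in same-numbered pairs and from -0.34 to 0.45 in the others. A fit with the replicate number as a block called 2 members in shRenilla and 3 in shBruce on starvation, as without it, and 0 in the other comparisons. Over the whole table the block moved the number of genes called between the starved lines from 2907 to 1932.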
